A study of Mus musculus with 24 samples.

Results

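The activin, inhibin and follistatin genes were described in the livers of 24 male C57Bl6J mice. The family was taken as 9 genes: the inhibin β subunits Inhba, Inhbb, Inhbc and Inhbe, the secreted binding proteins Fst and Fstl3, and the receptors Acvr1b, Acvr2a and Acvr2b. Probes were chosen by an exact match of their gene name, which gave 13 of the 56605 probes of the array and 9 of its 37074 gene names. The family itself was selected on a readout of these arrays, since Inhbb was among the genes already known to be higher in HFepa than in reference. That difference is therefore given as a description, and its place among the called probes is not read as a test. One Acvr1b probe failed the filter on dim signals, so 12 probes, covering all 9 genes, were tested.

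All mice were of the third generation of a lineage whose growing diet was supplemented with an oil, and were killed while fasting. The reference group (STD_Cont, 9 mice) came from the control fatty acid lineage, given high-oleic sunflower oil, and ate a standard low-fat diet. The HFoleic group (HFD_Cont, 8 mice) came from the same lineage and ate an obesogenic diet rich in fat and sucrose. The HFepa group (HFD_O3, 7 mice) came from a lineage given fish oil rich in the omega-3 fatty acid EPA and ate that same obesogenic diet. EPA-lineage mice on the low-fat diet are not analysed here, so diet and lineage cannot be told apart in HFepa against reference. Ages and litters are not given in the sources used here. Liver is a mixture of cell types, and in such bulk samples fewer cells of a type and less RNA per cell cannot be told apart.

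Activins are dimers of inhibin β subunits and belong to the TGF-β superfamily. They bind the type II receptors Acvr2a and Acvr2b, which recruit a type I receptor such as Acvr1b (ALK4), and the receptor complex phosphorylates Smad2 and Smad3. Follistatin and Fstl3 bind activins outside the cell and keep them from their receptors. In liver, Inhbc and Inhbe are made mostly by hepatocytes, and follistatin is secreted by the liver into the circulation.

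The arrays hold 1 spot for each of the 13 probes, each probe being 60 bases long, so every value below is 1 spot on 1 array. The sequences of the probes on which the results turn are shown to make clear which part of the transcript was read. The Inhba probe lies on chromosome 13 from 16118634 to 16118693 of the mouse build mm9, within the coding sequence. The Fst probe spans 673 bases of chromosome 13, from 115244692 to 115245364, so that it joins 2 exons across an intron and cannot lie in 1 unspliced stretch. The Inhbb probe lies on chromosome 1 from 121312160 to 121312219 and the Inhbe probe on chromosome 10 from 126786719 to 126786778, both near the end of the transcript. For these 2 probes the last 30 bases are printed, with the hexamer of the common polyadenylation signal in capitals.
Inhba probe: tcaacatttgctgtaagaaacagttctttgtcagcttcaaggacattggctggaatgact
Fst probe: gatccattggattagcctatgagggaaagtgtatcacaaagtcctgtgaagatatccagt
Inhbb probe, last 30 bases: gtcctcacctttagtttatttAATAAAtcc
Inhbe probe, last 30 bases: gtgacatacattttatattttcttAATAAA

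The Inhbc probe lies 7086 bases from the Inhbe probe on chromosome 10, from 126793865 to 126793924. The 2 genes are neighbours. The other probes lie on chromosome 10 from 79244916 (Fstl3), chromosome 15 from 101043956 (Acvr1b), chromosome 2 from 48758259 (Acvr2a) and chromosome 9 from 119342560 (Acvr2b), where each receptor is given by the brightest of its tested probes. In RefSeq promoters (mouse GRCm38.p6, 300 bases around each start), 8 of the 9 genes had an entry and Fst had none. The element TGATGNAA, read on both strands, was found in the Inhbe promoter and in no other of the 8, against 3.97% of all 32851 promoters. The motifs TGACGTCA, GTAAACA and GTCTAGAC were in none of the 8 windows and in 1.79%, 3.65% and 0.213% of all promoters.

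Across the 24 arrays 28804 to 34432 probes stood well above background and no spot was saturated. Hepatocyte markers were detected in every liver, with the mean log2 signal of 6 of 6 genes (Alb, Apoa1, Ttr, Hnf4a, Cps1 and Cyp2e1) between 16.22 and 16.53. Of the lists for other cells, 8 of 8 stellate cell, 6 of 6 Kupffer cell and 5 of 5 sinusoidal endothelium markers were tested, while Epcam and Cldn4 of bile duct, Cd8a of lymphocytes, Adipoq of adipocytes, Cpa1 and Prss2 of pancreas and Ckm and Acta1 of muscle failed the filter. Reference replicate 5 stood apart. It had the highest level of all 24 mice for the stellate cell list, 10.79 against 8.91 to 9.94 in the other livers, and for the bile duct list, 9.41 against 7.31 to 8.21. It was the lowest for the hepatocyte list, at 16.22. Differences of the family genes from reference, at the brightest probe of each, are also given without this mouse where that turned their sign, changed a call or moved them by more than 1.5 times.

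Among the ligands, Inhbb, the β subunit of activin B, was brightest in HFepa. Its log2 signal ran from 7.77 through a median of 7.97 to 8.43 in reference, from 7.92 through 8.18 to 9.08 in HFoleic, and from 8.51 through 8.94 to 9.39 in HFepa. Every HFepa liver lay above every reference liver. Inhbb was selected on this comparison and the share of all probes that separate so is not given, so no support is drawn from it. Most HFoleic livers lay within the reference range, but replicates 3 and 5 reached 8.98 and 9.08, in the range of HFepa. The mean was 8.06 ± 0.25 in the 9 reference, 8.34 ± 0.44 in the 8 HFoleic and 8.91 ± 0.35 in the 7 HFepa livers (± SD). HFepa was 1.80-fold above reference, a log2 difference of 0.84, and this is the value on which the family was selected.

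Markers of 2 other liver cell types had higher means in the same comparison, though none was called. The Kupffer cell list was higher in HFepa for 6 of 6 genes, with a median log2 difference of 0.25. In HFoleic against reference this list was higher for 5 of 6 genes, with a median of 0.18. Its mean log2 signal ran from 9.77 to 10.91 in reference, from 10.08 to 10.88 in HFoleic and from 10.36 to 11.10 in HFepa. The sinusoidal endothelium list was higher for 5 of 5 genes, with a median of 0.16 and levels from 9.94 to 10.35 in reference, from 9.79 to 10.44 in HFoleic and from 10.09 to 10.45 in HFepa. In HFoleic against reference it was higher for 2 of 5 genes, with a median of -0.03. The groups overlapped for both lists, and the part of these cells in the Inhbb signal was not tested.

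The Inhbb difference between HFepa and reference was 1.02, 0.92 and 0.56 within the 3 slides and 1.16 and 0.60 within the 2 rows of a slide. It was 0.89 on the log2 scale without reference replicate 5. All of these values come from the arrays on which Inhbb was selected, so they are a description and no support. Against HFoleic, Inhbb was 0.57 ± 0.17 (SE) higher in HFepa on the log2 scale, a 1.48-fold difference, with 7 of 7 livers above the HFoleic mean. This comparison shares the HFepa arrays with the one used for selection, and it did not pass the test across all probes (limma adjusted p = 0.26). In HFoleic against reference the Inhbb difference was 0.28 ± 0.16 (SE, limma adjusted p = 0.348). Its 95% interval ran from -0.06 to 0.61, so a rise of up to 1.53-fold lay within the error. The reference arrays here also enter the comparison used for selection. The value, p and interval are therefore not independent of that selection.

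Inhba, the β subunit of activin A, did not pass the test in any comparison. Its log2 signal ran from 7.86 through 8.21 to 8.60 in reference, from 7.99 through 8.60 to 9.21 in HFoleic and from 7.98 through 8.63 to 9.25 in HFepa. The 3 groups overlapped, with 4 HFoleic and 4 HFepa livers above the highest reference liver. The log2 difference was 0.35 ± 0.17 (SE, limma adjusted p = 0.221) in HFoleic and 0.31 ± 0.17 (SE, limma adjusted p = 0.453) in HFepa against reference, and the same 9 reference arrays enter both. Within slides 1, 2 and 3 the HFoleic difference was 0.57, 0.53 and -0.01.

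Inhbc and Inhbe, which encode the subunits of activins C and E, showed no difference that passed the test. Inhbc ran from 9.91 through 10.98 to 11.26 in reference, from 10.52 through 11.00 to 11.40 in HFoleic and from 10.74 through 11.19 to 11.65 in HFepa. Its lowest value was that of reference replicate 5. The log2 difference of Inhbc from reference was 0.13 ± 0.16 (SE) in HFoleic and 0.28 ± 0.17 (SE) in HFepa, with limma adjusted p = 0.724 and 0.496. Without that mouse the differences were 0.0027 and 0.16. Inhbe ran from 11.65 through 12.17 to 12.77 in reference, from 11.97 through 12.21 to 12.50 in HFoleic and from 11.26 through 12.11 to 12.58 in HFepa. The SDs of Inhbe were 0.34 in reference, 0.17 in HFoleic and 0.41 in HFepa. Its log2 difference was -0.02 ± 0.15 (SE) in HFoleic and -0.21 ± 0.15 (SE) in HFepa against reference, with limma adjusted p = 0.964 and 0.605. The HFoleic value was -0.05 without reference replicate 5.

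Fst, which encodes follistatin, had lower values in most livers on the obesogenic diet, in both lineages, but did not pass the test. Its log2 signal ran from 7.64 through 8.28 to 10.12 in reference, from 7.03 through 7.72 to 8.53 in HFoleic and from 7.36 through 7.55 to 7.92 in HFepa. All HFepa livers lay below all but 1 reference liver, replicate 8 at 7.64, and 5 of 8 HFoleic livers lay at or below 7.76. HFoleic was at 0.586 times the reference level, a log2 difference of -0.77 ± 0.24 (SE) with a 95% interval from -1.27 to -0.27 (limma adjusted p = 0.0511). HFepa was at 0.552 times the reference level, a log2 difference of -0.86 ± 0.25 (SE) with an interval from -1.37 to -0.34 (limma adjusted p = 0.112). Both differences use the same reference arrays. Differences of larger size were seen in 0.970% of all tested probes in HFoleic and 0.270% in HFepa against reference.

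The reference mouse with the highest Fst, at 10.12, was replicate 5, the liver with the high stellate cell and bile duct marker levels. The part of those cells in its Fst signal was not tested. Without it, the log2 difference was -0.56 in HFoleic (limma adjusted p = 0.04996) and -0.65 in HFepa (limma adjusted p = 0.114). The HFoleic value then lay just inside the threshold. It was also called without reference replicate 8 (-0.87, limma adjusted p = 0.0198) and without HFoleic replicate 6 (-0.89, limma adjusted p = 0.0231), and the HFepa value without reference replicate 8 (-0.96, limma adjusted p = 0.0473). Within slides 1, 2 and 3, Fst differed from reference by -1.03, -1.32 and -0.15 in HFoleic and by -1.12, -0.84 and -0.62 in HFepa. Between HFepa and HFoleic the log2 difference was -0.09, with an interval from -0.62 to 0.44 (limma adjusted p = 0.951).

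Fstl3, the follistatin-like protein that also binds activins, did not pass the test in any comparison. It ran from 6.11 through 6.33 to 7.47 in reference, from 6.12 through 6.35 to 6.69 in HFoleic and from 6.20 through 6.47 to 6.82 in HFepa. The 2 highest reference livers, replicates 4 and 5 at 7.42 and 7.47, lay above every liver on the obesogenic diet. These 2 livers were also the highest of the 24 for the stellate cell list, at 9.94 and 10.79. For the adipocyte list they stood at 8.92 and 8.36, the highest levels, with HFoleic replicate 6 next at 8.35. The part of those cells in the Fstl3 signal was not tested. The log2 difference from reference was -0.19 ± 0.16 (SE) in HFoleic and -0.08 ± 0.17 (SE) in HFepa (limma adjusted p = 0.568 and 0.899). Without replicate 5 they were -0.07 and 0.04, and without replicate 4 they were -0.08 and 0.03, so that the HFepa value turned in sign.

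**Figure D1:**
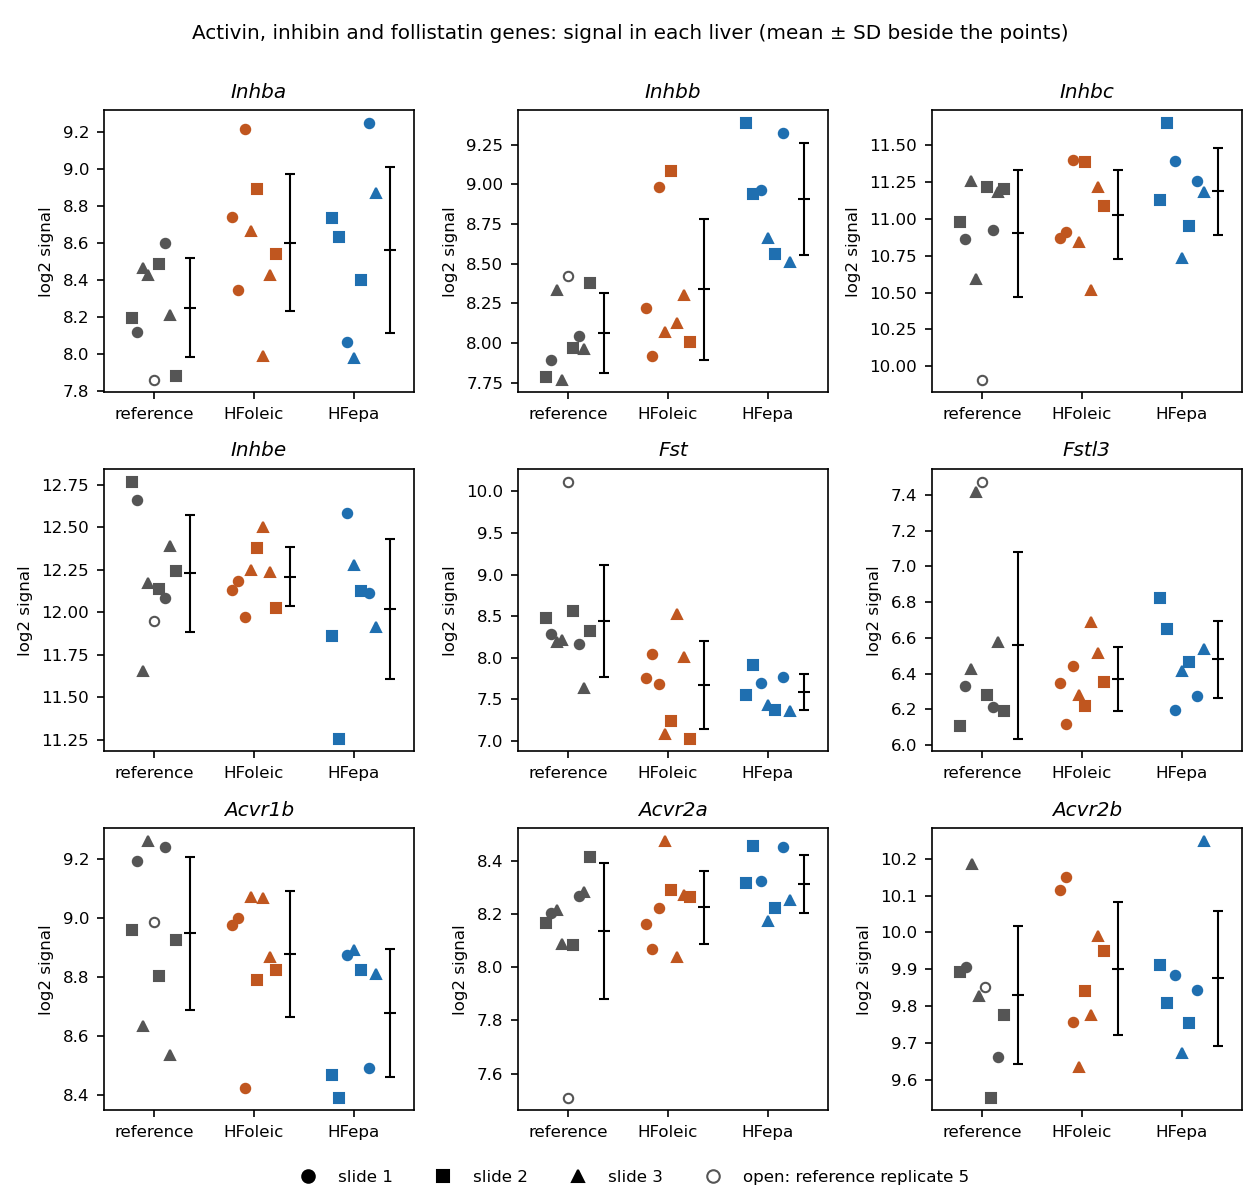
The log2 signal of each gene at its brightest tested probe (y axis) in each of the 24 livers of the 3 groups (x axis), with the mean ± SD beside the points and the slide as the symbol. HFepa lies above reference for Inhbb with no overlap, in the comparison on which the family was selected. Reference replicate 5 (open symbol) is the highest liver for Fst at 10.12 and the lowest for Inhbc at 9.91.

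No probe of a receptor passed the test in any of the 3 comparisons. Acvr1b, the type I receptor, ran from 8.53 through 8.96 to 9.26 in reference, from 8.42 through 8.92 to 9.07 in HFoleic and from 8.39 through 8.81 to 8.89 in HFepa. All 7 HFepa livers lay below the reference mean, though only 3 lay below the lowest reference liver. The log2 difference of HFepa from reference was -0.27 ± 0.11 (SE, limma adjusted p = 0.286), and that of HFoleic was -0.07 ± 0.11 (SE, limma adjusted p = 0.778). The second Acvr1b probe, 1046 bases away, was well above background in 5 of 9 reference, 1 of 8 HFoleic and 0 of 7 HFepa livers. It was not tested. Its mean was 5.72 in reference and 5.51 in HFepa, a ratio of 1.16 with signals below background taken at their measured value in both groups. The values ran from 5.40 to 6.12 in reference and from 5.26 to 5.60 in HFepa, so the groups overlapped near background.

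Acvr2a, a type II receptor, was read by 3 probes. At the brightest it ran from 7.51 through 8.20 to 8.41 in reference, from 8.04 through 8.25 to 8.48 in HFoleic and from 8.17 through 8.32 to 8.46 in HFepa. The lowest value was again that of reference replicate 5. The log2 difference was 0.09 ± 0.09 (SE) in HFoleic and 0.18 ± 0.09 (SE) in HFepa against reference, with limma adjusted p = 0.633 and 0.418. Without that mouse the differences were 0.01 and 0.10. The second probe, 2578 bases away, differed by 0.03 and 0.16. The third lies 83994 bases from the second and was well above background in 8 of 9 reference, 7 of 8 HFoleic and 5 of 7 HFepa livers. It differed by 0.20 in HFoleic (limma adjusted p = 0.165) and by 0.04 in HFepa, so that the order of the 2 obesogenic groups was not the same at the 3 probes.

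Acvr2b, the other type II receptor, ran at its brightest probe from 9.55 through 9.84 to 10.18 in reference, from 9.64 through 9.89 to 10.15 in HFoleic and from 9.67 through 9.84 to 10.25 in HFepa. One reference spot was marked as an outlier by the scanner software and left out, so reference has n = 8 here. The log2 difference was 0.07 ± 0.09 (SE) in HFoleic and 0.04 ± 0.09 (SE) in HFepa, and the interval of the latter ran from -0.15 to 0.24. At the second probe, 1091 bases away, the differences were -0.12 and -0.18. The 2 Acvr2b probes disagreed in sign, and neither passed the test.

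In HFoleic against reference, 0 of the 12 tested probes were called at an adjusted p under 0.05, against 7.23% of all 30003 probes tested. At an unadjusted p under 0.05 there were 3 (Fst, Inhba and the third Acvr2a probe), against 21.1% of all probes. In HFepa against reference 1 of 12 was called, the Inhbb probe on which the family was selected, against 0.393% of all probes. That call was lost under 3 of 12 other settings and with 7 of 24 arrays left out. At an unadjusted p under 0.05 there were 4 (Inhbb, Fst, Acvr1b and the second Acvr2b probe), against 13.5% of all probes. Since the family was selected in this comparison, nothing is read from either count. In HFepa against HFoleic 0 of 12 were called, as were 0% of all probes, and 1 of 12 had an unadjusted p under 0.05, against 9.70% of all. The median log2 difference over the 12 probes was 0.05, 0.04 and -0.03 in the 3 comparisons, where that over all probes was -0.00072, 0.0047 and 0.0048. In each comparison with reference, 7 of the 12 probes had a higher and 5 a lower mean.

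**Figure D2:**
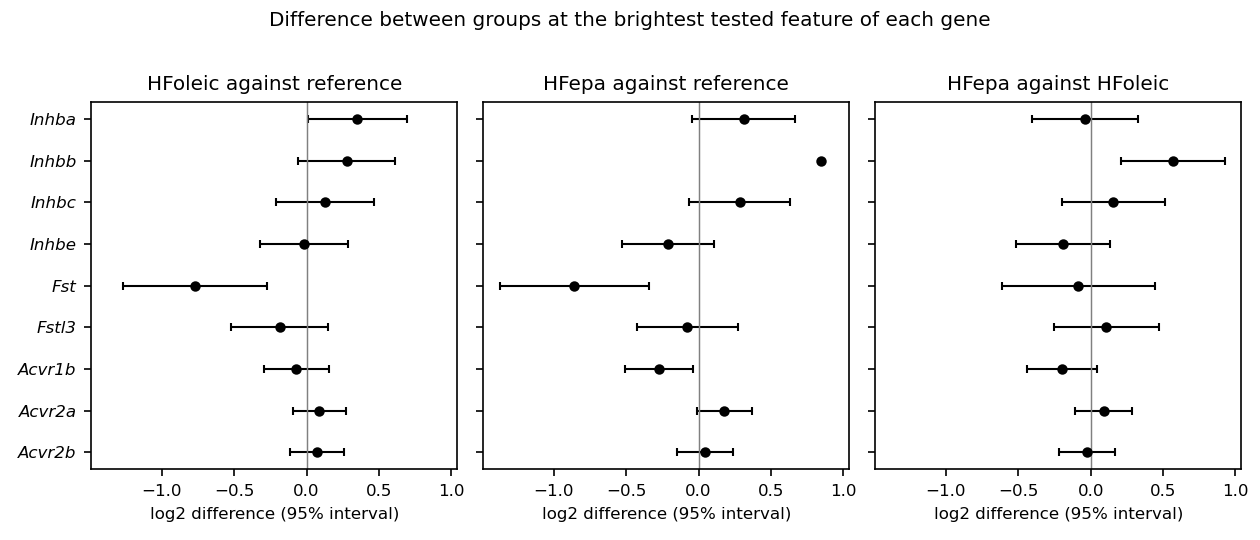
The log2 difference (x axis) of each of the 9 genes (y axis) in the 3 comparisons, with its 95% interval from the limma fit. Fst lies at -0.77 and -0.86 against reference and near 0 between the obesogenic groups, and the Inhbb value of 0.84 in HFepa against reference is drawn without an interval because the family was selected on it.

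In both comparisons with reference, the difference of Fst kept its sign within each slide and slide row and under each of the 36 alternatives tried, and was smallest in HFoleic within slide 3, at -0.15. Whether it was called in HFoleic depended on the setting and on single mice.

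**Figure D3:**
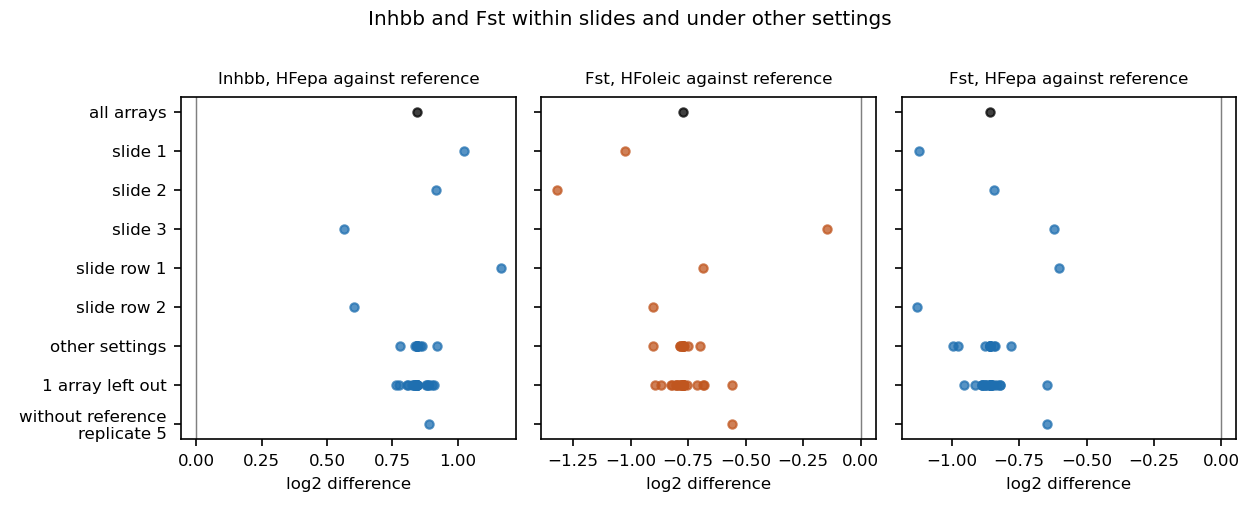
The log2 difference (x axis) of Inhbb in HFepa and of Fst in HFoleic and in HFepa against reference, over all arrays, within each slide and slide row, under 12 other settings and with each of the 24 arrays left out in turn. Inhbb lies between 0.56 and 1.16 on the arrays on which it was selected. Leaving out reference replicate 5 brings Fst to -0.56 and -0.65.

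The pattern of Inhbb across the 24 livers was set against that of 20191 other genes, each at its brightest tested probe. The 5 most alike were the transcript BB163080 (Pearson r = 0.85), the pseudogene Slc2a4rg-ps (r = 0.83), Eid3 (r = 0.81), Egfl7, which encodes a secreted protein of endothelial cells (r = 0.80), and the zinc finger gene Zcchc2 (r = 0.78). The Spearman coefficients were 0.81, 0.85, 0.73, 0.80 and 0.72. When the group means were first removed, the Pearson values were 0.77, 0.80, 0.66, 0.69 and 0.66. These genes were picked as the highest of many on the same arrays, so the coefficients are a description.

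The members also varied among themselves within the groups. For each of the 36 pairs of the 9 genes, the deviations of the livers from their group means were correlated, which leaves out the group differences used to select the family. A permutation test of 100000 reassignments within groups was used, 2-sided, with p-values adjusted over the 36 pairs. Of the 36 pairs, 4 had an adjusted p under 0.05. The share among pairs of other genes was not measured, so this count is not read as a trait of the family. Livers high in Inhbc were low in Acvr1b, with Pearson r = -0.58 (p = 0.00494, adjusted p = 0.045) and Spearman rho = -0.69 (p = 0.00048, adjusted p = 0.0173) over 24 mice. Without the 2 mice farthest from the median of Inhbc, r was -0.72. Within the 3 slides r was -0.26, -0.61 and -0.86, and without reference replicate 5 the relation over 23 mice was r = -0.73 with an adjusted p of 0.0036.

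Inhbb and Acvr1b were related in the same direction, with r = -0.57 (permutation p = 0.00385, adjusted p = 0.045) and rho = -0.53 (permutation p = 0.00783, adjusted p = 0.094). Without the 2 mice farthest from the median of Inhbb, r was -0.50, and within the 3 slides it was -0.79, -0.42 and -0.74. Without reference replicate 5, r was -0.60 with an adjusted p of 0.0401. Inhbb and Inhbc themselves had r = 0.29 (permutation adjusted p = 0.32) and rho = 0.50 (permutation adjusted p = 0.166). Without reference replicate 5 these were r = 0.60 (permutation adjusted p = 0.0655) and rho = 0.67 (permutation adjusted p = 0.0301). The 2 relations with Acvr1b are therefore not shown to be separate. The other 2 of the 4 pairs rested on reference replicate 5. Inhbc and Acvr2a had r = 0.75 (permutation p = 0.00086, adjusted p = 0.031) and rho = 0.60 (permutation p = 0.00334, adjusted p = 0.0601), which became r = 0.52 with an adjusted p of 0.148 without it and r = 0.47 without the 2 farthest mice. Fst and Acvr2a had r = -0.74 (permutation p = 0.005, adjusted p = 0.045) and rho = -0.45 (permutation p = 0.0302, adjusted p = 0.217), which became r = -0.40 with an adjusted p of 0.284 without it and r = -0.32 without the 2 farthest mice. The neighbours Inhbc and Inhbe had r = -0.17 (permutation p = 0.457, adjusted p = 0.758).

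**Figure D4:**
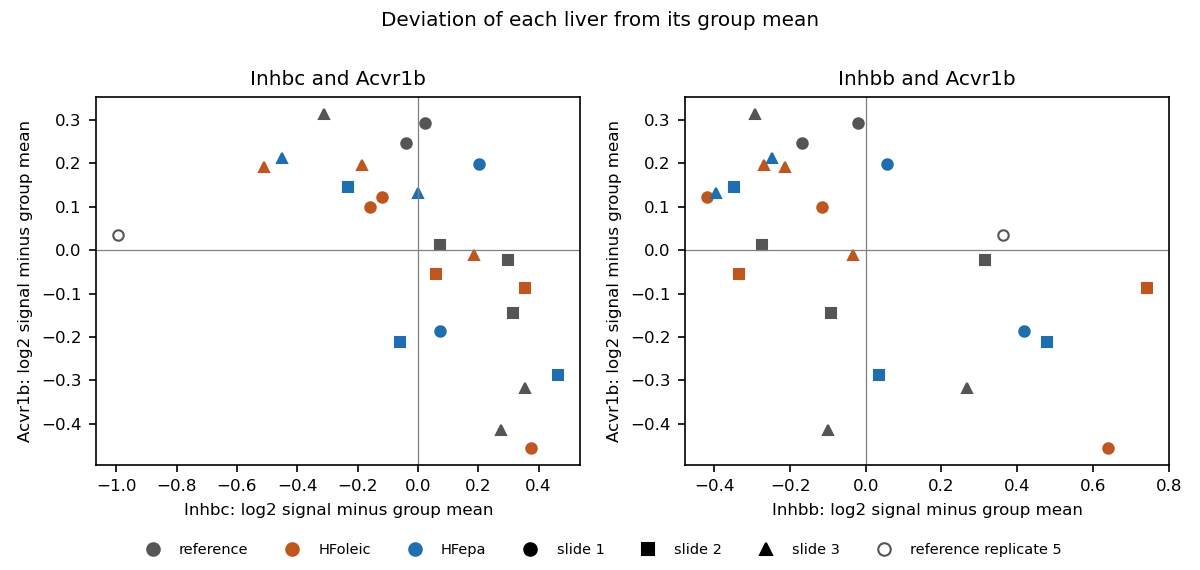
The deviation of each liver from its group mean in log2 signal for Acvr1b (y axes) against Inhbc and against Inhbb (x axes), coloured by group and with the slide as the symbol. Livers high in either ligand subunit tend to be low in Acvr1b, with r = -0.58 and -0.57, and reference replicate 5 (open symbol) lies far to the left for Inhbc.

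Other genes of the pathway were taken from a list of 49, of which 45 were tested. The 4 that failed the filter on dim signals were Inha, the α subunit that turns activins into inhibins, the type I receptor Acvr1c and the ligands Gdf11 and Mstn. In HFoleic against reference 1 gene of the list was called higher and 3 were called lower. This is 4 of 45, or 8.89%, against 8.07% when each of 20192 genes was counted at its brightest probe. In HFepa against reference 0 of 45 were called, against 0.391% of all genes, and in HFepa against HFoleic 0 of 45, against 0%. The median log2 difference of the list was -0.09, -0.04 and 0.04 in these 3 comparisons, with 30, 28 and 18 of the 45 genes lower. Of all 20192 genes, 10417, 10040 and 9709 were lower.

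Gdf15, a stress-induced member of the superfamily that signals through a receptor of its own, was the gene called higher. Its mean log2 signal stood at 10.11 ± 1.05 (SD, n = 9) in reference, at 11.58 ± 0.78 (SD, n = 8) in HFoleic and at 11.05 ± 1.11 (SD, n = 7) in HFepa. The HFoleic difference was 1.48 ± 0.45 (SE, limma adjusted p = 0.0437) and the HFepa difference 0.94 ± 0.46 (SE, limma adjusted p = 0.382). The HFoleic call of Gdf15 was lost under 3 of 12 other settings and with 13 of 24 arrays left out, where the adjusted p reached 0.0911. Of the ligands and receptors, 1 of 15 was called in HFoleic (6.67%, against 8.07% of all genes), with 4 higher and 11 lower means. Of the 7 co-receptors and decoys 0 were called in any of the 3 comparisons.

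Of the 14 signal transducers, 2 fell in HFoleic against reference, or 14.3% against 8.07% of all genes, while 7 had a higher and 7 a lower mean. Smad9, which carries signals of bone morphogenetic proteins, differed by -0.67 ± 0.20 (SE, limma adjusted p = 0.038). Skil, a repressor of Smad-driven transcription, differed by -0.36 ± 0.11 (SE, limma adjusted p = 0.0413). Smad2 and Smad3, which carry the activin signal, differed by 0.07 and 0.10 and were not called. Without reference replicate 5 the adjusted p was 0.0605 for Smad9 and 0.0717 for Skil, and both were then no longer called. Over the 24 arrays left out in turn, Smad9 was lost in 10 fits and Skil in 12.

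Of the 9 known targets, 1 fell in HFoleic against reference, or 11.1% against 8.07% of all genes. The mean was lower for 8 of 9 in HFoleic (median log2 difference -0.20) and for 8 of 9 in HFepa against reference (median -0.18), where none was called and the same reference arrays enter both. Of all 20192 genes, 10417 and 10040 had a lower mean in these comparisons. Cdkn1a, which encodes the cell cycle inhibitor p21, was at 9.34 ± 1.09 (SD, n = 9) in reference, at 7.64 ± 0.74 (SD, n = 8) in HFoleic and at 8.41 ± 0.87 (SD, n = 7) in HFepa. The HFoleic difference was -1.70 ± 0.42 (SE, limma adjusted p = 0.0134), and -1.50 without reference replicate 5 (limma adjusted p = 0.0246). Hamp, which encodes the iron hormone hepcidin and is induced by activin B and bone morphogenetic proteins, was at 15.92 ± 0.47 (SD, n = 9) in reference, at 15.08 ± 0.84 (SD, n = 8) in HFoleic and at 14.89 ± 0.70 (SD, n = 7) in HFepa. Its log2 difference from reference was -0.84 ± 0.31 (SE, limma adjusted p = 0.101) in HFoleic and -1.03 ± 0.32 (SE, limma adjusted p = 0.134) in HFepa. The largest differences of the list between HFepa and HFoleic were those of Ctgf (0.77), Cdkn1a (0.76) and Gdf15 (-0.54), with limma adjusted p = 0.362, 0.595 and 0.754.

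**Figure D5:**
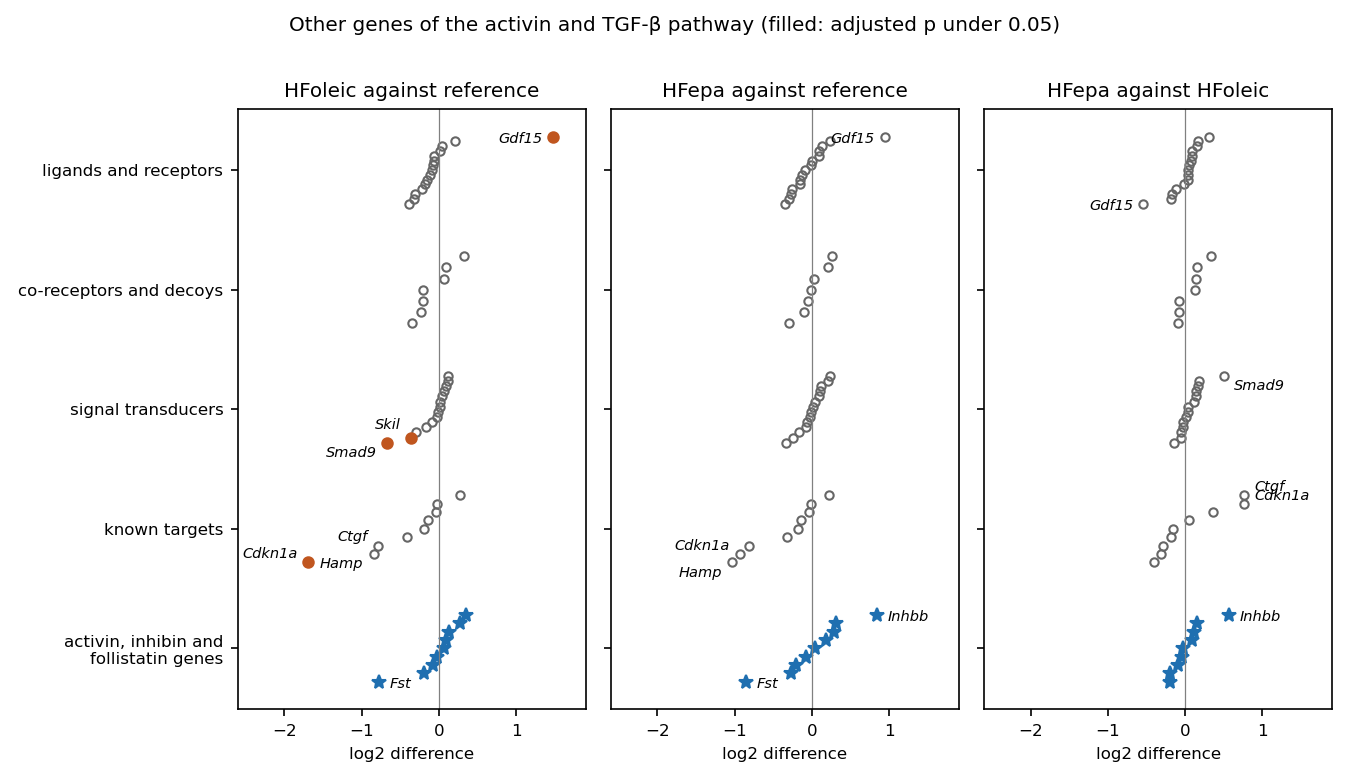
The log2 difference (x axis) of each of the 45 tested genes of the pathway list, by sub-list (y axis), in the 3 comparisons, with the 9 family genes as stars whose tests are not marked. Filled circles are genes called at an adjusted p under 0.05, which are Gdf15 at 1.48, Skil at -0.36, Smad9 at -0.67 and Cdkn1a at -1.70 in HFoleic against reference.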

How the data were processed

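Gene expression was measured in 24 mouse livers, 1 array per mouse. Per the file headers, the authors' scans of 1-colour (Cy3) Agilent arrays were read by Agilent Feature Extraction 10.10.1.1, which gave deposited intensity values per spot and background marks, with probe positions on mm9. A log2 table deposited by the authors, quantile-normalized, holds all 13 probes of the family. It has 32176 rows, its column medians lie between 7.82 and 7.83, and its members differ from the values used here by at most 0.0276. The authors' notes name limma for their processing.

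From the deposited intensities, outlier-marked spots (134 to 627 per array) were removed from the log2 median signal. Spots of a probe were averaged. Of 56605 probes, 30003 were kept, namely those that the scanner marked as well above background in 75% or more of the livers of 1 group. Values were then quantile-normalized. Groups came from the titles. A model with the 3 group means was fitted over all 24 arrays with limma 3.58.1 in R 4.3.3, and p-values were adjusted by Benjamini-Hochberg over all tested probes, with calls at an adjusted p under 0.05. A gene is named by its brightest tested probe. The pathway genes given with values are those called and the 3 with the largest difference in each comparison, and also Smad2 and Smad3, which were added after their values were seen. Members, lists and tests were chosen with earlier results of these data known. Replicate numbers did not pair the mice: the deviations of same-numbered mice correlated between -0.30 and 0.35 in 22 pairs. The number of arrays limits the precision. The oils were given to lineages, so p-values measure the spread between these mice and not that between lineages. Litters are not given in the sources used here. The alternatives were another signal, background correction, scaling, filter and test, slide, slide row or replicate number as a block, and leaving out each array.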

Additional observations from a re-analysis of the deposited data

Results flagged for a closer look

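Within the groups, the gap between the highest or lowest liver and its neighbour was compared with the range of the group (Dixon's test) for the 12 tested probes in the 3 groups. Of the 36 sets, 6 had a liver that stood far from the others, where chance gives about 1 in 20. Reference replicate 5 accounted for 3 of the 6. It was the highest reference liver for Fst at 10.12, where the next was 8.56, and the lowest for Inhbc at 9.91, where the next was 10.59, and for Acvr2a at 7.51, where the next was 8.09.

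The other 3 sets concerned different livers. Acvr1b was at 8.42 in HFoleic replicate 3, where the next lowest was 8.79. The second Acvr2a probe was at 8.18 in HFepa replicate 2, where the next highest was 7.11, and the brightest Acvr2b probe was at 10.25 in HFepa replicate 7, where the next was 9.91.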

How the results depend on the processing

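The number of family probes called in HFoleic against reference was 0, and 1 (Fst) with the processed signal scaled to the 75th percentile, with only probes well above background on all 24 arrays, with slide as a block, and without reference replicate 5, reference replicate 8 or HFoleic replicate 6, so that it ran from 0 to 1 over the arrays left out. In HFepa against reference it was 1, and 0 with the processed signal, without the filter on dim probes and with a t-test in place of limma. It ran from 0 to 2 over the arrays left out, with 0 without reference replicate 1, 2 or 4 or HFepa replicate 1, 2, 6 or 7, and 2 without reference replicate 8, when Fst was added (-0.96, adjusted p = 0.0473). All probes called there numbered 118, but 60 with the processed signal, 0 without the filter, 0 with the t-test and between 0 and 496 in those 8 cases. The paper names a t-test and reports genes called in HFepa against reference, Inhbb among them. The t-test run here did not reproduce those calls. No family probe was called in HFepa against HFoleic under any of the 36 alternatives. With the replicate block (limma), the counts were 0, 1 and 0, and Fst gave -0.79 in HFoleic (adjusted p = 0.0602) and -0.98 in HFepa (adjusted p = 0.084) against reference.

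Of the 26 differences with a test, which leaves out Inhbb in HFepa against reference, 305 of 312 values under the 12 other settings and 604 of 624 with 1 array left out kept their sign and their side of the threshold. Those that turned were near 0: Inhbe in HFoleic against reference at 0.0352 (processed signal) and 0.0269 (75th percentile scaling) and from -0.0901 to 0.0486 over the arrays left out, Fstl3 in HFepa against reference at 0.0034 (processed signal) and from -0.135 to 0.0364, and Acvr2b there at -0.00069 (outlier spots kept) and from -0.0185 to 0.0945. Between HFepa and HFoleic, Inhba ran from -0.155 to 0.0566, Fst from -0.178 to 0.0362 and Acvr2b from -0.0891 to 0.0086 over the arrays left out. The cause was not tested. As an alternative chosen after seeing the data, the pathway list was refitted: 4 genes called in HFoleic against reference became 1 to 5 under the other settings and 1 to 8 with 1 array left out. Of those 24 fits, Gdf15 missed the threshold in 13, Skil in 12, Smad9 in 10 and Cdkn1a in 0. Probes near background, such as the second Acvr1b and Acvr2b probes, limit what can be said of small differences.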
